A study of Mus musculus with 12 samples.

Results

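Mitochondrial respiratory complex I is the NADH to ubiquinone oxidoreductase of the inner mitochondrial membrane, and most of its subunits and several of its assembly factors are encoded in the nucleus by genes whose symbols begin with Nduf. In mouse liver, 43 such genes were measured, out of 30063 genes with a probe set that named 1 symbol. They were taken as every symbol of the array's annotation that begins with Nduf, pseudogenes aside, each through its probe set of highest mean signal, and no Nduf gene had more than 1 such probe set. Of the 43 genes, 42 passed the filter on low values, a mean log2 signal above 3.93, and were tested. The exception was Ndufa4l2, with a mean of 3.92. The probe sets shared by Ndufa11 and Ndufa11b and by Ndufb4 and Ndufb4c were left out because they named more than 1 gene.

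Livers came from 12 mice aged 3 months, with 1 array per mouse. All groups were C57BL/6J -Oca2p-un/J, a strain with the unstable pink-eyed allele of Oca2. The PVP group received silver nanoparticles of 20 nm coated with polyvinylpyrrolidone, a neutral polymer, the citrate group received silver nanoparticles of 20 nm coated with citrate, a small charged molecule, and the control group received water. Particles were given by gavage at 4 mg of silver per kg once a day in 7 doses, and livers were taken 24 h after the last one. Each group held 4 mice, 2 females (replicates 1 and 2 with either coating, replicates 2 and 4 in controls) and 2 males. None of the 12 mice received a coating without silver, and the labels give no litter, cage or array batch. With 4 arrays a group, precision is limited.

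Complex I takes electrons from NADH at its N module, passes them through a chain of iron-sulfur clusters to ubiquinone at its Q module, and uses the energy to pump protons through the membrane-embedded P module, which is described in a proximal and a distal part. A small set of core subunits, some encoded in the nucleus and some in mitochondrial DNA, carries out catalysis, while accessory subunits surround and stabilise them. Assembly factors help to build the complex and do not stay in it. Liver cells depend on the complex to reoxidise the NADH that fatty acid oxidation and the citric acid cycle produce.

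The promoters of 3 of these genes are shown for what follows: among Nduf genes, Ndufa3 had the smallest p with PVP, Ndufa8 the smallest p with citrate, and Ndufs8 the lowest ratio of PVP to control. The sequences are RefSeq promoter windows of the GRCm38.p6 build, 300 bases that end shortly after the gene's start. Ndufa3 lies at chr7:3617123-3617422 (plus strand), Ndufa8 at chr2:36049289-36049588 (minus strand) and Ndufs8 at chr19:3912725-3913024 (minus strand). Each is written 5′ to 3′ on its gene's strand, with motif matches in capitals.
Ndufa3: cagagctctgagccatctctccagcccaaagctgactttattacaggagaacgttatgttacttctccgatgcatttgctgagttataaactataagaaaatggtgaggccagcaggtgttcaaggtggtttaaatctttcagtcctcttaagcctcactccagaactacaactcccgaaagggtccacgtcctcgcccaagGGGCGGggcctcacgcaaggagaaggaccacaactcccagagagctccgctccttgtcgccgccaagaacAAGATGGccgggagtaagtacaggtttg
Ndufa8: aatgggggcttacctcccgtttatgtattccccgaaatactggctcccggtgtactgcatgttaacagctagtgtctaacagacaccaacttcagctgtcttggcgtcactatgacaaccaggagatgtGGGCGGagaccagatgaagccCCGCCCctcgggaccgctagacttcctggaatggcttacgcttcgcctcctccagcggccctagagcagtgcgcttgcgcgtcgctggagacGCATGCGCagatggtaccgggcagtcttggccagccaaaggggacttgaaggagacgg
Ndufs8: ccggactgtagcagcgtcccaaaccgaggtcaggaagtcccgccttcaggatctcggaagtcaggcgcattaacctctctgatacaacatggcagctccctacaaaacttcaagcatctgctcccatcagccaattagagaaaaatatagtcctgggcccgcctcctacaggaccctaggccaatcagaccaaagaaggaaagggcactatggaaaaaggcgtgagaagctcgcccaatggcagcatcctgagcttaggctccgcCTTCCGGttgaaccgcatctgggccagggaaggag
Counted from the gene's start, the capitals mark an SP1 motif at -48 and a YY1 motif at 23 in Ndufa3. In Ndufa8 they mark an SP1 motif at -121 and, on the opposite strand, an SP1 motif at -100 and an NRF1 motif at -8. In Ndufs8 they mark an ETS motif at 16 on the opposite strand. NRF1, the ETS factor GABP, YY1 and SP1 are known regulators of nuclear genes for respiratory chain proteins.

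Windows were found for 38 of the 43 genes, 40 windows in all. The letters GCGCATGC (NRF1), searched on both strands like the others, were in 4 of the 40 windows (10%), against 2.71% of 32851 windows of all genes. CCGGAAG (ETS) was in 5 (12.5%, against 8.86%), AAGATGG (YY1) in 7 (17.5%, against 6.34%) and GGGCGG (SP1) in 20 (50%, against 35.7%). The median GC content was 59.2% in the windows of Nduf genes and 52.7% in all windows. The genes with the NRF1 letters were Ndufa6, Ndufa8, Ndufaf4 and Ndufaf5. Of the 16 genes with a window that were lower with PVP at an unadjusted p under 0.05, described next, 9 held the SP1 letters, 4 the ETS letters, 4 the YY1 letters and 2 the NRF1 letters, against 10, 1, 3 and 2 of the other 22 genes. A match describes these letters only.

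PVP-coated particles against water gave lower signals across much of the Nduf family, with no gene past the threshold. Of the 42 genes, 35 had a log2 fold change below 0, against 50.5% of the 19985 genes tested on the array. At an unadjusted p under 0.05, 19 genes (45.2%) were lower and 0 were higher with PVP, while 12.2% of all genes were lower and 8.05% higher. The median log2 fold change was -0.18 for the Nduf genes and -0.0023 for all genes. After Benjamini-Hochberg adjustment over all genes in limma, 0 of the 42 passed, where 0.04% of all genes did, and the smallest adjusted p was 0.0984, for Ndufa3. Without PVP replicate 3, Ndufa3 passed (-0.86, limma adjusted p = 0.0348). In 6 genes (Ndufa3, Ndufa8, Ndufb4b, Ndufb6, Ndufb11 and Ndufs7) each PVP mouse lay below each control mouse, as in 4.92% of all genes. The ratios of PVP to control signal ran from 51.6% for Ndufs8 to 108% for Ndufb10.

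Array quality differed between the PVP mice. The area under the curve that separates 1324 exon from 5222 intron control probe sets was 0.778, 0.821, 0.815 and 0.794 in PVP replicates 1 to 4, 0.814 to 0.827 in citrate mice and 0.804 to 0.842 in controls. PVP replicates 1 and 4 thus had the lowest areas of the 12 arrays, while replicates 2 and 3 had areas within the control range. In a fit with this area as a term, 10 Nduf genes were lower at an unadjusted p under 0.05 (6.67% of all genes were) and the median was -0.17. The most negative values came closer to 0 with this term, at -0.28 for Ndufs8, -0.44 for Ndufb9 and Ndufb4b, -0.31 for Ndufs7, -0.30 for Ndufa10 and -0.36 for Ndufa8, where the fit without it gave -0.95, -0.93, -0.87, -0.61, -0.63 and -0.66. With the term Ndufa3 had -0.49, Ndufs1 -0.25, Ndufc1 -0.22, Ndufaf4 -0.21 and Ndufa9 -0.15, against -0.69, -0.38, -0.40, -0.44 and -0.32 without it. With PVP replicates 1 and 4 left out there were 7 (5.58% of all genes), and the median was again -0.17. Those 7 were Ndufa3, Ndufa8, Ndufab1, Ndufb4b, Ndufb6, Ndufb11 and Ndufs3. Without those arrays Ndufs8 had -0.43, Ndufb9 -0.55, Ndufb4b -0.43, Ndufs7 -0.36 and Ndufa10 -0.34.

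**Figure D1:**
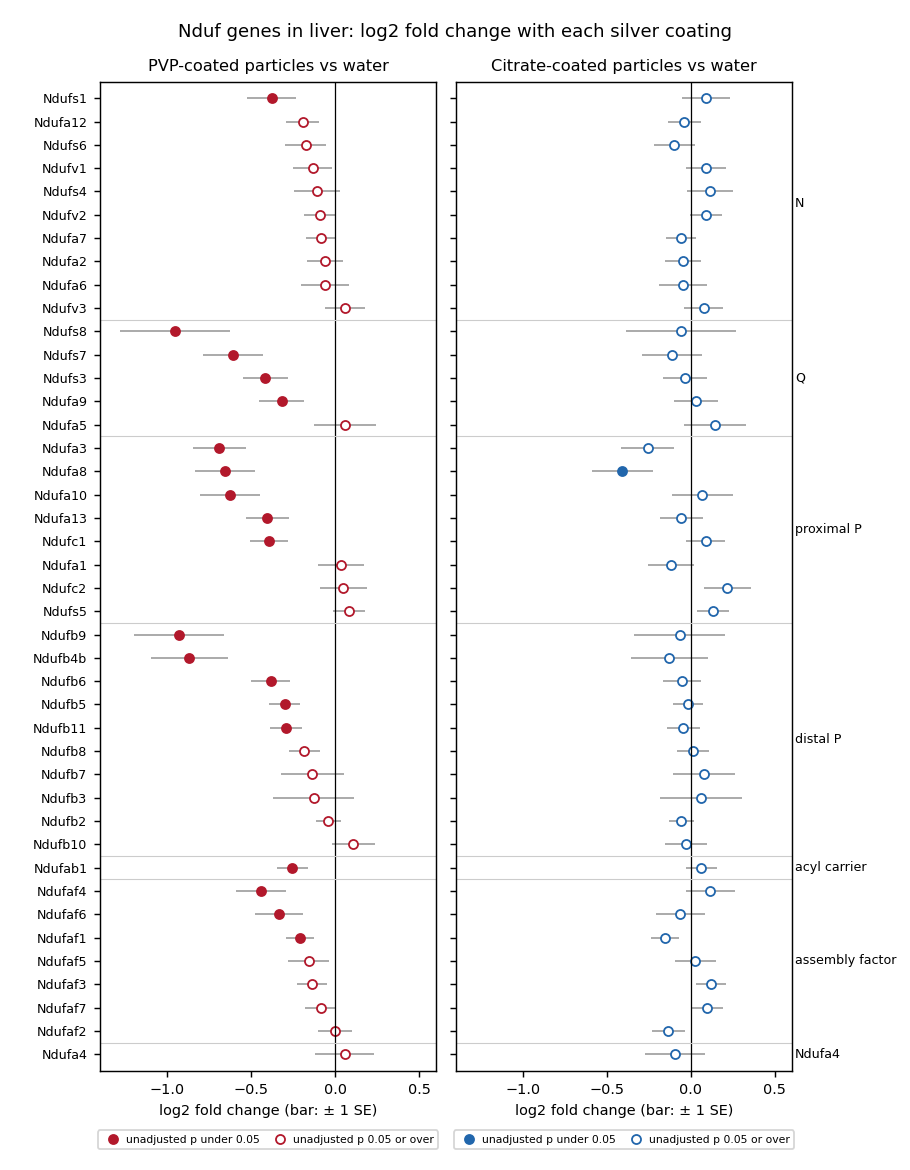
Log2 fold changes of the 42 tested Nduf genes with PVP-coated particles (left) and citrate-coated particles (right) against water, with bars of 1 SE, grouped by module of complex I. Filled points mark an unadjusted p under 0.05, 19 with PVP, all lower, and 1 with citrate. With PVP, the core N module genes Ndufv1, Ndufv2 and Ndufs1 had -0.13, -0.09 and -0.38. The Q module genes ran from -0.95 for Ndufs8 (-0.28 with the area term) to 0.06 for Ndufa5. The difference between modules was not tested.

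**Figure D2:**
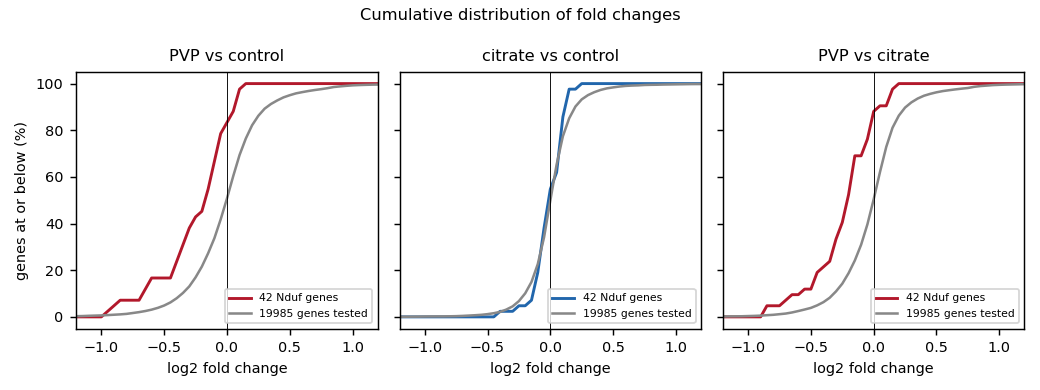
Cumulative share of genes (percent) against log2 fold change for the 42 Nduf genes (coloured) and the 19985 genes tested (grey), in 3 comparisons. With PVP, 38.1% of Nduf genes had a value at or below -0.30 against control, compared with 13.1% of all genes; with citrate the curves lie close together.

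The Q module, where ubiquinone is reduced, had the lowest median of the modules, -0.42, with 4 of its 5 tested genes lower with PVP at an unadjusted p under 0.05. Of these only Ndufs7 stayed at that level with the area term, and only Ndufs3 without PVP replicates 1 and 4. Ndufs7 carries the last iron-sulfur cluster before ubiquinone. Its log2 signals were 7.62, 8.20, 8.47 and 8.07 in PVP mice, 8.49, 8.73, 8.55 and 8.57 in citrate mice and 8.54, 8.48, 8.80 and 8.97 in control mice. All 4 PVP mice lay below every control and every citrate mouse, PVP replicate 3 by the least. The log2 fold change of PVP against control was -0.61 (SE 0.18, limma adjusted p = 0.144), and -0.31 with the area term. Ndufs8, which holds a pair of iron-sulfur clusters, had 10.94, 12.14, 12.09 and 11.19 in PVP mice, 12.40, 12.91, 12.13 and 12.50 in citrate mice and 12.80, 11.95, 12.40 and 13.03 in controls. PVP replicates 1 and 4 were far below the rest, while replicates 2 and 3 lay within the control range. Its log2 fold change of -0.95 had a wide error (SE 0.33, limma adjusted p = 0.179), and with the area term it was -0.28.

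Ndufs3, a core subunit without an iron-sulfur cluster that lies between Ndufs7 and the N module, had 8.56, 8.73, 9.18 and 9.16 in PVP mice, 9.19, 9.28, 9.38 and 9.30 in citrate mice and 9.17, 9.21, 9.52 and 9.41 in controls. The females, PVP replicates 1 and 2, were lowest, and the PVP males lay near the lowest controls. The log2 fold change was -0.42 (SE 0.13, limma adjusted p = 0.162). Ndufa9, an accessory subunit that binds a nucleotide near the ubiquinone site, had -0.32 (adjusted p = 0.218), and the accessory subunit Ndufa5 had 0.06 (adjusted p = 0.877).

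The N module, which oxidises NADH, stood closer to no difference, with a median of -0.10 and 1 of 10 genes lower at an unadjusted p under 0.05. That gene was Ndufs1, the largest core subunit of the module, which holds several iron-sulfur clusters. It had 10.38, 10.72, 11.19 and 10.89 in PVP mice, 11.25, 11.31, 11.30 and 11.19 in citrate mice and 11.09, 11.17, 11.29 and 11.15 in controls. PVP replicates 1, 2 and 4 lay below all 8 other mice and replicate 3 among them. The log2 fold change was -0.38 (SE 0.14, limma adjusted p = 0.197). Ndufv1, the subunit that binds NADH and flavin, had 9.79, 9.73, 10.33 and 10.04 in PVP mice, 10.13, 10.17, 10.34 and 10.14 in citrate mice and 10.23, 9.98, 10.38 and 9.84 in controls. The groups overlapped, and the PVP against control value was -0.13 (SE 0.12, adjusted p = 0.521). Its partner Ndufv2, which holds the cluster next to the flavin, had -0.09 (SE 0.10, adjusted p = 0.604). The 7 accessory subunits of the module ran from -0.19 for Ndufa12 to 0.06 for Ndufv3. The Ndufs6 probe set carries 2 gene identifiers, so its value of -0.17 cannot be given to 1 gene.

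Over both modules the 6 core subunits measured had log2 fold changes below 0, 4 of them at an unadjusted p under 0.05, with a median of -0.40. Of the 28 accessory subunits, 22 were below 0 and 12 lower at that level, with a median of -0.18. The difference between modules, and between core and accessory subunits, was not tested.

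**Figure D3:**
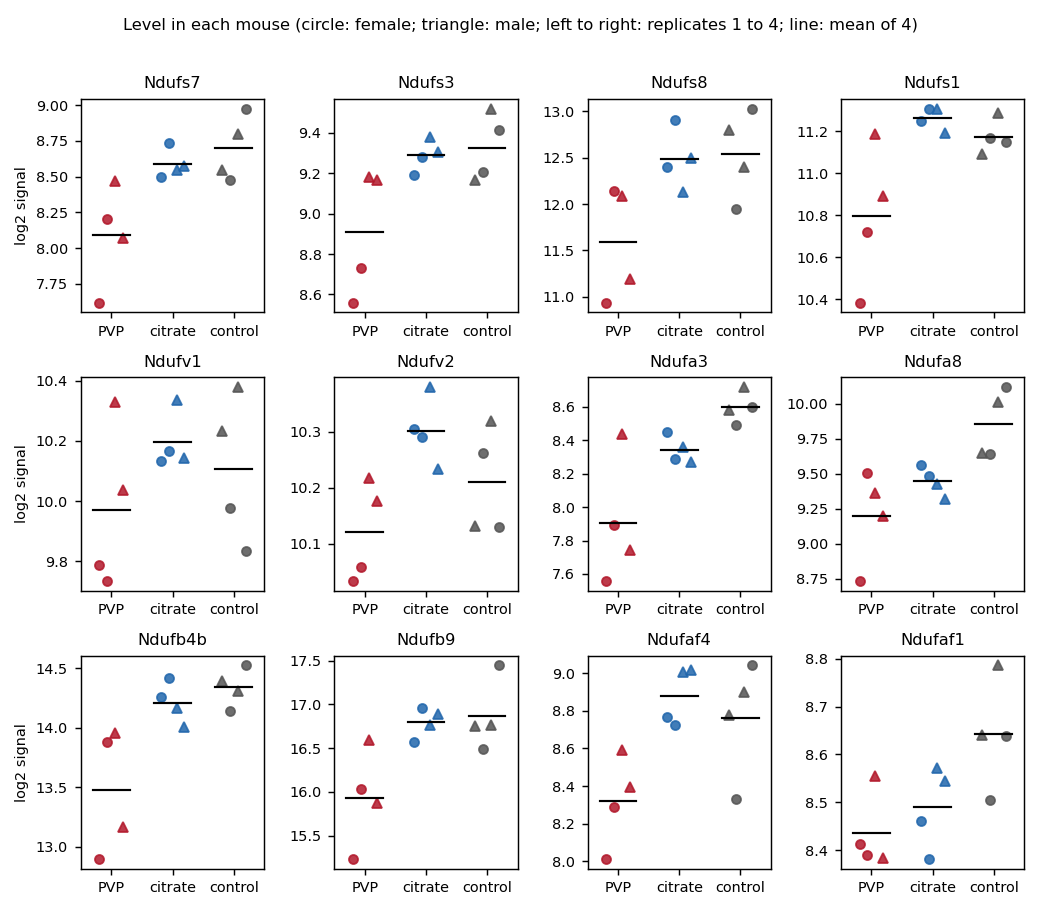
Log2 signal of 12 Nduf genes in each of the 12 mice, with PVP, citrate and control from left to right, circles for females, triangles for males and a line at the mean of 4 mice; the vertical axes differ between genes and do not start at 0. In Ndufs7, Ndufa3, Ndufa8 and Ndufb4b each PVP mouse lies below each control mouse, while in Ndufv1 and Ndufv2 PVP and control mice overlap. In Ndufv2 each PVP mouse lies below each citrate mouse.

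In the proximal P module, the part of the membrane arm next to the Q module, 5 of 8 genes were lower with PVP at an unadjusted p under 0.05 and 3 lay above 0, with a median of -0.40. Ndufa3, a small single-span membrane subunit, had 7.56, 7.89, 8.44 and 7.74 in PVP mice, 8.45, 8.29, 8.36 and 8.27 in citrate mice and 8.58, 8.49, 8.72 and 8.60 in controls. Every PVP mouse and every citrate mouse lay below every control. Its PVP signal was 62.0% of control, a log2 fold change of -0.69 (SE 0.16, limma adjusted p = 0.0984), the smallest p of the family. Ndufa8, a subunit of the intermembrane space face with paired cysteines, had 8.74, 9.51, 9.36 and 9.20 in PVP mice, 9.56, 9.48, 9.43 and 9.32 in citrate mice and 9.65, 9.65, 10.01 and 10.12 in controls. Here too both coatings lay wholly below the controls, with -0.66 for PVP (SE 0.18, limma adjusted p = 0.132), and -0.36 with the area term.

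Ndufa10, a subunit of the matrix side related to nucleoside kinases, had 10.60, 11.14, 11.52 and 10.93 in PVP mice, 11.66, 11.84, 11.77 and 11.69 in citrate mice and 11.82, 11.27, 11.83 and 11.76 in controls. All PVP mice were below all citrate mice, but control replicate 2 lay inside the PVP range. The log2 fold change against control was -0.63 (SE 0.18, limma adjusted p = 0.144), and -0.30 with the area term. Ndufc1, a small membrane subunit, had -0.40 (SE 0.11, adjusted p = 0.144) and Ndufa13, also known as GRIM-19 and linked to cell death, -0.40 (SE 0.13, adjusted p = 0.159). Ndufs5, Ndufc2 and Ndufa1 had 0.08, 0.05 and 0.03.

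In the distal P module, the outer end of the membrane arm, 5 of 10 genes were lower with PVP at an unadjusted p under 0.05 and 9 were below 0, with a median of -0.24. Ndufb9, an accessory subunit with the LYR motif by which such proteins bind the acyl carrier protein, had the highest mean signal of the family. It had 15.23, 16.03, 16.59 and 15.87 in PVP mice, 16.57, 16.96, 16.76 and 16.88 in citrate mice and 16.75, 16.49, 16.76 and 17.45 in controls. PVP replicates 1, 2 and 4 lay below all control and citrate mice, and replicate 3 lay above 1 mouse of each. The log2 fold change was -0.93 (SE 0.27, limma adjusted p = 0.144), a PVP signal of 52.5% of control, and -0.44 with the area term. Ndufb4b had 12.90, 13.88, 13.96 and 13.16 in PVP mice, 14.26, 14.42, 14.16 and 14.01 in citrate mice and 14.39, 14.14, 14.31 and 14.53 in controls. All PVP mice lay below all citrate and control mice, with a log2 fold change of -0.87 (SE 0.23, limma adjusted p = 0.126), and -0.44 with the area term.

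Ndufb4b is a copy of the subunit gene Ndufb4, and signals of near-identical copies are uncertain because probes may bind more than 1 of them. Ndufb4c, a copy that the array's own annotation gives another symbol and that is therefore not among the 43, had -0.71 (SE 0.16, limma adjusted p = 0.0988). Of the other distal genes, Ndufb6 had -0.38 (SE 0.12, adjusted p = 0.148), Ndufb5 -0.30 (SE 0.09, adjusted p = 0.152) and the X-linked Ndufb11 -0.29 (SE 0.10, adjusted p = 0.168). In Ndufb6 and Ndufb11 no PVP mouse reached a control mouse or a citrate mouse. The remaining 5 distal genes ran from -0.18 for Ndufb8 to 0.11 for Ndufb10. Ndufab1, the mitochondrial acyl carrier protein that also serves lipoic acid synthesis, had 5.94, 6.07, 6.10 and 6.35 in PVP mice, 6.45, 6.46, 6.43 and 6.37 in citrate mice and 6.22, 6.44, 6.41 and 6.40 in controls. All PVP mice were below all citrate mice but overlapped the controls, with a log2 fold change of -0.25 against control (limma adjusted p = 0.185).

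All 7 assembly factors had a value below 0 with PVP, 3 of them at an unadjusted p under 0.05, with a median of -0.16. Ndufaf4, which acts early on Q module intermediates, had 8.01, 8.29, 8.59 and 8.40 in PVP mice, 8.76, 8.73, 9.01 and 9.02 in citrate mice and 8.78, 8.33, 8.90 and 9.04 in controls. The PVP mice lay below all citrate mice and overlapped with control replicate 2, and the log2 fold change against control was -0.44 (SE 0.15, limma adjusted p = 0.17). Ndufaf6 had -0.33 (SE 0.15, adjusted p = 0.233). Ndufaf1, a factor of the proximal membrane arm, had 8.41, 8.39, 8.55 and 8.38 in PVP mice, 8.46, 8.38, 8.57 and 8.54 in citrate mice and 8.64, 8.51, 8.79 and 8.64 in controls. Both coatings overlapped with control replicate 2 and lay below the other 3 controls, at -0.21 for PVP against control (SE 0.08, adjusted p = 0.21). Ndufaf5, which in human cells hydroxylates Ndufs7, had -0.16, Ndufaf3 -0.14, and Ndufaf7, a protein arginine methyltransferase, -0.09. Ndufaf2, a late factor related to Ndufa12, had -0.00049, whose sign depends on the setting.

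Ndufa4, long counted as a complex I subunit and now placed in complex IV, had 15.22, 15.15, 16.16 and 16.00 in PVP mice, 15.53, 15.04, 15.78 and 15.58 in citrate mice and 15.84, 15.70, 15.82 and 14.94 in controls. The groups overlapped throughout, with a log2 fold change of 0.06 for PVP (adjusted p = 0.879). Its hypoxia-induced relative Ndufa4l2 was near the lower end of the signals in every group, with means of 3.94 in PVP mice, 3.89 in citrate mice and 3.95 in controls.

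The lower signals were not shared evenly by the 4 PVP mice. The median deviation of the 42 genes from the control mean was -0.28, -0.36, -0.03 and -0.23 in PVP replicates 1 to 4 and -0.03, 0.03, 0.07 and -0.03 in citrate replicates 1 to 4. Each control mouse, set against the mean of the other 3 controls, had -0.03, -0.12, 0.15 and 0.03. PVP replicate 3, a male, thus lay among the citrate and control mice, and the other 3 PVP mice lay below all of them. Across all genes tested the medians stayed between -0.03 and 0.02. In PVP replicates 1 to 4, 29, 26, 8 and 24 of the 42 genes were below every control mouse, against 35.9%, 23.0%, 19.8% and 25.5% of all genes. In citrate replicates 1 to 4 the counts were 6, 7, 2 and 7, against 17.8%, 18.2%, 16.0% and 17.7% of all genes. PVP replicate 1 had the lowest of the 12 signals in 18 Nduf genes, but it also did so in 26.0% of all genes.

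**Figure D4:**
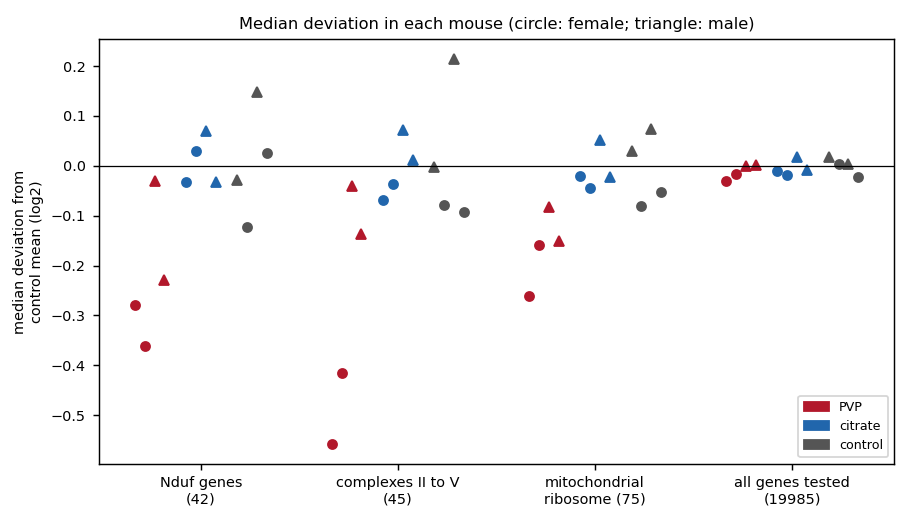
Median deviation from the control mean (log2) in each mouse for the 42 Nduf genes, 45 nuclear subunits of complexes II to V, 75 mitochondrial ribosomal protein genes and 19985 genes tested, with PVP, citrate and control from left to right in each set (circles: females; triangles: males); each control is set against the other 3. PVP replicates 1, 2 and 4 lie lowest for the Nduf genes at -0.28, -0.36 and -0.23, while PVP replicate 3 lies at -0.03.

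The scaling of the arrays moved the split of signs. Medians over all probe sets were 4.40 and 4.28 in PVP replicates 1 and 4, the arrays of lowest area, and 4.13 to 4.21 on the others. With each array centred on its median over the 30063 genes, 41 of the 42 Nduf genes were below 0. Their median was -0.28, where that of all genes was -0.10. With quantile normalization over the same 30063 genes, 26 of the 42 were below 0 and their median was -0.08, where that of all genes was -0.02. The 19 genes lower at an unadjusted p under 0.05 kept their sign under both, and all 19 stayed at that level with centring and 13 with quantile normalization, where 17.7% and 10.9% of all genes were lower. With quantile normalization Ndufv3 was higher with PVP at an unadjusted p under 0.05 (0.22, limma adjusted p = 0.247). The 9 genes that changed sign with quantile normalization were Ndufa2, Ndufa6, Ndufa7, Ndufaf2, Ndufb2, Ndufb3, Ndufs4, Ndufv1 and Ndufv2.

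Markers of liver cell types were read on the same arrays, since in whole liver fewer cells of a type and less RNA per cell cannot be told apart. The 4 hepatocyte markers measured, Alb, Apoa1, Ttr and Cps1, were at 19.71 or above on every array, close to the ceiling of 19.93, so that they could not show a difference. All 6 Kupffer cell markers were above 0 with PVP, Cd5l and Cd163 at an unadjusted p under 0.05, and their summed log2 level was 11.95 to 14.48 in PVP mice, 11.52 to 13.27 in citrate mice and 11.49 to 12.54 in controls. Of 6 neutrophil markers, Mpo and Ngp were not above the filter and the other 4 were above 0, S100a8 and S100a9 at an unadjusted p under 0.05, with summed levels of 9.24 to 12.67 in PVP mice, 9.33 to 10.10 in citrate mice and 7.04 to 10.03 in controls. All 6 stellate cell markers and 5 of 6 sinusoidal endothelial markers were below 0 with PVP, and of these Reln, Lrat, Oit3 and Pecam1 were lower at an unadjusted p under 0.05. The summed stellate level was 11.68 to 12.93 in PVP mice, 11.98 to 12.71 in citrate mice and 12.35 to 13.20 in controls. For endothelial markers it was 11.01 to 11.77 in PVP mice, 11.39 to 11.97 in citrate mice and 11.49 to 11.74 in controls. Lymphocyte and cholangiocyte markers had summed levels of 6.48 to 7.11 in all groups, and the erythroid marker Alas2 ran from 7.37 to 11.36. With citrate too, all 6 Kupffer cell markers were above 0, with a median of 0.48 and 1 at an unadjusted p under 0.05. The 4 neutrophil markers tested were also above 0 with citrate (median 0.99), and all 6 stellate cell markers below 0 (median -0.16). Of the sinusoidal endothelial markers, 2 were below 0 and 4 above with citrate. The part of cell composition in the Nduf values was not tested.

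Citrate-coated particles against water left the family near the background. Of the 42 genes, 23 were below 0, against 49.6% of all genes, and the median was -0.03 against 0.00043 for all genes. Ndufa8 was the 1 gene lower at an unadjusted p under 0.05, where 3.82% of all genes were lower and 2.75% higher, and 0 Nduf genes were higher. After adjustment in limma 0 passed, where 0.005% of all genes did. The count at an unadjusted p under 0.05 was 0 when any citrate mouse, control replicate 3 or PVP replicate 4 was left out, and 2 without control replicate 4. In Ndufa3 and Ndufa8 each citrate mouse lay below each control mouse, as in 2.37% of all genes, and no Nduf gene had each citrate mouse above each control. Ndufa8 was at 75.3% of control, a log2 fold change of -0.41 (SE 0.18, limma adjusted p = 0.75), and Ndufa3 had -0.26 (SE 0.16, adjusted p = 0.892). Ndufaf1 had -0.15 and Ndufaf2 -0.13, and on the other side Ndufc2 had 0.22, Ndufs5 0.13, Ndufaf3 0.12 and Ndufaf7 0.10, with adjusted p-values of 0.86 to 0.986. Both coatings were set against the same 4 control mice, so a low or high control moves both values together.

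PVP-coated against citrate-coated particles is the direct comparison of the coatings and uses no control mouse in its difference. In it, 37 of the 42 genes were below 0, against 50.2% of all genes, with a median of -0.22 against -0.00055 for all genes. At an unadjusted p under 0.05, 17 genes were lower with PVP and 0 higher, where 8.72% of all genes were lower and 5.29% higher. Without citrate replicate 2 the count was 11. With the area term it was also 11, and without PVP replicates 1 and 4, the arrays of lowest area, it was 6. The share of all genes is not given for these 3 fits. The fold changes in this paragraph come from the fit without the area term. After adjustment in limma 0 Nduf genes passed, as did 0% of all genes. In 13 genes each PVP mouse lay below each citrate mouse, as in 4.84% of all genes. The core subunits had 6 of 6 values below 0, with 4 lower at an unadjusted p under 0.05 and 4 without overlap. Ndufc1 had the smallest p, with 5.87, 6.06, 6.27 and 6.03 in PVP mice and 6.48, 6.50, 6.56 and 6.63 in citrate mice. These values did not overlap, and the log2 fold change was -0.48 (SE 0.11, limma adjusted p = 0.239). Ndufa10 had -0.69 and Ndufaf4 -0.56, each with an adjusted p of 0.247. Ndufab1 had -0.32, Ndufs1 -0.47, Ndufb4b -0.74, Ndufb9 -0.86 and Ndufb5 -0.28, with adjusted p-values of 0.258 to 0.288. Ndufa8 and Ndufa3, the pair below control with citrate too, had -0.25 (SE 0.18) and -0.43 (SE 0.16) between the coatings.

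Genes that act with complex I were counted in the same way, in the fit without the area term. For the lists that follow, no values are given with that term or without PVP replicates 1 and 4, the arrays of lowest area. The part of array quality in their values was not tested. Of 10 assembly factors with other names, 5 were lower with PVP against control at an unadjusted p under 0.05 and 0 higher, with a median of -0.24, while with citrate 0 were lower and the median was 0.02. Tmem126b, a membrane factor of the mitochondrial complex I assembly complex, averaged 8.09 ± 0.21 in PVP mice, 8.58 ± 0.16 in citrate mice and 8.63 ± 0.15 in controls (SD, n = 4 each), with a log2 fold change of -0.55 for PVP against control (SE 0.13, limma adjusted p = 0.111). Ecsit and Timmdc1 of the same complex had -0.50 and -0.35, and Dmac2, a distal membrane arm factor, -0.25. In Tmem126b, Timmdc1 and Dmac2 the PVP and control mice did not overlap. Ndufaf8, which the array's annotation lists under an older symbol and which is therefore not among the 43, had -0.32 (adjusted p = 0.171).

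Enzymes of the mitochondrial matrix that supply NADH to complex I had 8 of 11 genes lower with PVP at an unadjusted p under 0.05 and a median of -0.54, against 0 of 11 and -0.01 with citrate. These values too come from the fit without the area term. Idh3g, a subunit of the isocitrate dehydrogenase of the citric acid cycle, averaged 9.72 ± 0.31 in PVP mice, 10.39 ± 0.24 in citrate mice and 10.42 ± 0.17 in controls (SD, n = 4 each), and Mdh2, the mitochondrial malate dehydrogenase, 10.27 ± 0.10, 10.80 ± 0.15 and 10.81 ± 0.24 in PVP, citrate and control mice. Neither overlapped between PVP and control mice, with log2 fold changes of -0.70 and -0.54 (limma adjusted p = 0.114 and 0.119). Pdhb of the pyruvate dehydrogenase complex had -0.73 and Dlst of the 2-oxoglutarate dehydrogenase complex -0.69.

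Of 10 other enzymes that pass electrons to ubiquinone, 4 were lower with PVP at an unadjusted p under 0.05, and these were the subunits of succinate dehydrogenase, complex II. The same 4 genes are counted again below among the nuclear subunits of complexes II to V. Sdhd had -0.76, Sdhb -0.48, Sdha -0.40 and Sdhc -0.34, with adjusted p-values of 0.141 to 0.177. Of 10 regulators of mitochondrial biogenesis, 2 were lower, the mitochondrial transcription factor Tfb2m (-0.66) and the ribosomal RNA methyltransferase Tfb1m (-0.59), with a median of -0.16 for the list, a count near the 12.2% of all genes that were lower. With citrate, the coactivator Ppargc1b was lower at that level (-0.43) and its relatives Ppargc1a (0.99) and Pprc1 (0.34) higher, with adjusted p-values of 0.533 to 0.69. Of the 7 subunits encoded in mitochondrial DNA 3 were analysed here, and 0 of them were lower with PVP at an unadjusted p under 0.05. ND2 averaged 16.83 ± 0.05 in PVP mice, 16.63 ± 0.17 in citrate mice and 16.76 ± 0.04 in controls (SD, n = 4 each), ND6 had 0.34 for PVP against control (SE 0.29), against -0.32 for citrate, and ND3 was at the ceiling on every array and could not show a difference. Between the coatings ND2 (0.20) and ND6 (0.66) were higher with PVP at an unadjusted p under 0.05, with limma adjusted p-values of 0.308 and 0.349. ND2 had the identical value of 16.7758 in control replicates 1, 2 and 3 and in PVP replicate 2, so its spread and p-value are uncertain.

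The family was not alone in its values. Of 45 nuclear subunits of complexes II to V, 24 (53.3%) were lower with PVP against control at an unadjusted p under 0.05 and 0 higher, with a median of -0.28. Of 75 mitochondrial ribosomal proteins, 30 (40%) were lower and 0 higher, with a median of -0.16. The share of 45.2% among Nduf genes lay between them, and the smallest adjusted p was 0.11 for complexes II to V and 0.0659, for Mrpl50, among the ribosomal proteins. The order of the mice was similar in complexes II to V, with medians of -0.56, -0.42, -0.04 and -0.14 in PVP replicates 1 to 4, and more even in the mitochondrial ribosome, with -0.26, -0.16, -0.08 and -0.15. All of these values come from the fit without the area term, and those of the other sets with it are not given. No test of a difference between these sets was made.

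Sex was crossed with treatment, so the response was also read in each sex from 2 mice per mean. The female minus male difference in the response to PVP had an unadjusted p under 0.05 in 0 of the 42 genes, against 3.62% of all genes, and that in the response to citrate in 0, against 2.45%. For PVP the difference was below 0 in 33 of the 42 genes (share of all genes not given), with a median of -0.15 against -0.02 for all genes. The limma adjusted p was 1 for each of the 42 in both. The medians of the response to PVP were -0.22 in females and -0.16 in males. The PVP females included replicate 1, the array of lowest area (0.778). The PVP males included replicate 4, the next lowest (0.794), and replicate 3, whose median deviation of -0.03 lay among the citrate and control mice. The gene of smallest p was Ndufs3, with -0.66 in females and -0.17 in males.

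The sexes were also compared over all 3 groups. Of the 42 genes, 31 had a female against male value below 0, with a median of -0.10 against -0.02 for all genes. At an unadjusted p under 0.05, 7 were lower in females and 0 higher, where 8.93% of all genes were lower, and 0 passed after adjustment in limma, where 2.18% of all genes did. The 7 genes, looked up after their values were seen, were Ndufa4, Ndufs6, Ndufv1, Ndufa12, Ndufv3, Ndufa1 and Ndufa6, of which 5 belong to the N module. Ndufa4 had the lowest value, -0.60 (SE 0.14, limma adjusted p = 0.068). None of these 7 was among the 19 genes lower with PVP.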

How the data were processed

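Liver RNA was hybridised to 12 whole-transcript arrays, 1 per mouse. The deposited table held log2 signal values of 72688 probe sets, from 1.73 to a ceiling of 19.93, and the submitters' processing notes name RMA and Transcriptome Analysis Console 4.0.1.36 without role or order. Build, annotation and summarisation settings are not given in the sources used here. Array medians were 4.13 to 4.40, highest in PVP replicates 1 and 4, and no further scaling was applied.

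Symbols came from the platform's table (30604 with 1 symbol, 2146 with several, 39938 with none), and 1135 symbols were updated with RefSeq GRCm38.p6 tables. Each of 30063 genes was read from its probe set of highest mean, and 19985 genes with a mean above 3.93 were tested. This limit was the 40th percentile of the means of all 72688 probe sets. A single fit of group and sex to all arrays in limma 3.58.1 (R 4.3.3, eBayes with a trend) gave the comparisons of groups and of sexes, and differences in response came from a model of 6 means, 1 per group and sex. Tests were two-sided, with Benjamini-Hochberg adjustment over all genes tested and a threshold of 0.05. The fit was tested on simulated data. Group levels are mean ± standard deviation (SD), fold changes carry the fitted standard error (SE), and summed marker levels are the log2 of summed linear signals.

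The Nduf genes, the other lists and the rule for named genes were chosen with earlier results of these data known. Values are given for the 12 genes of smallest p with PVP against control, the 8 of smallest p in the other comparisons of groups, the nuclear core subunits, the assembly factors, the genes of highest and lowest mean, and up to 4 genes of smallest p per list. Other genes were added to account for all 43. Alternatives were the scaling, the filter, the moderation of the spread, the terms and samples in the fit, the probe set rule, and leaving out each mouse.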

Additional observations from a re-analysis of the deposited data

Results flagged for a closer look

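In 6 of 129 groups of 4 mice, 1 mouse stood apart from the other 3 by a gap beyond Dixon's critical value for 4 samples, a rate that chance gives in about 1 of 20 groups. PVP replicate 3 had a log2 signal of 7.41 for Ndufb5, where the other PVP mice had 7.03 to 7.07. PVP replicate 1 had 5.88 for Ndufaf2, where the others had 5.57 to 5.61. Citrate replicate 3 had 10.34 for Ndufv1, against 10.13 to 10.17 in the other citrate mice. Control replicate 2 had 11.27 for Ndufa10, where the other controls had 11.76 to 11.83. Control replicate 4, a female, had 14.94 for Ndufa4 and 5.78 for Ndufs5, where the other controls had 15.70 to 15.84 and 6.03 to 6.06.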

How the results depend on the processing

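With PVP against control, 0 Nduf genes passed the adjusted threshold under each alternative other than leaving out PVP replicate 3, and 0 to 1 did over the fits without a single mouse. The 1 gene, without PVP replicate 3, was Ndufa3 (-0.86, limma adjusted p = 0.0348). The count at an unadjusted p under 0.05, 19, was 14 to 21 without a single mouse. It was 10 with exon over intron area as a term, where 6.67% of all genes were lower. Without PVP replicates 1 and 4, the arrays of lowest area, it was 7 (5.58% of all genes), in a fit with fewer mice. With citrate against control this count, 1, was 0 to 2 without a single mouse. It was 0 with 6 means of group by sex, with centred arrays and with the replicate block, and 2 without a trend in the moderation and in a fit to the 2 groups. For PVP against citrate the count, 17, was 11 to 20 without a single mouse, with 11 without citrate replicate 2, 11 with the area term and 6 without PVP replicates 1 and 4. For the other refits in this paragraph the share of all genes is not given, so their counts describe the Nduf genes only. The median log2 fold change of the family stayed between -0.24 and -0.14 for PVP against control and between -0.29 and -0.19 for PVP against citrate without a single mouse. Ndufaf2, at -0.00049, had 0.00022 with quantile normalization and -0.079 to 0.063 without a single mouse; Ndufv1 and Ndufv2 had 0.036 and 0.087 with quantile normalization. The cause of these shifts was not tested. Replicate numbers were not taken as pairs of mice. Correlations of same-numbered deviations ran from -0.44 to 0.234. Without different-numbered mice as a reference, they cannot decide whether the numbers pair mice. With the replicate block the count for PVP against control was 16 and that for PVP against citrate 14. Precision is limited by 4 mice per group, and genes at the ceiling of 19.93 could not be compared.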

Other observations

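Across the 42 tested Nduf genes, the mean log2 signal and the PVP against control log2 fold change had a Spearman correlation of -0.24, given as a description over genes that share the same 12 arrays. Ndufa11b, listed under an older symbol in the array's annotation and so not among the 43 genes, had a log2 fold change of -0.10 for PVP against control (limma adjusted p = 0.775), with overlapping groups of 6.30 to 7.05 in PVP mice, 6.55 to 7.23 in citrate mice and 6.42 to 6.96 in control mice.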
